A study of Mus musculus with 2 samples.

Results

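The tight and adherens junction genes Cldn5, Cldn2, Cldn1, Ocln, Tjp1, F11r, Jam2, Esam and Cdh5 were examined in every named cell class of the mouse brain. Their rows were found by gene symbol, and all 9 were present among the 32285 genes of both deposited count matrices. The data are droplet-based single-cell RNA sequencing libraries from female mice aged 11 to 12 months in which human APOE replaces the mouse gene under the mouse promoter. E4/E4 mice were compared with E3/E3 mice. Right hemispheres without brainstem and cerebellum from 3 mice were pooled for each genotype, so that E4 and E3 are 1 library each. No test between genotypes is therefore possible, and every interval given here covers counting error only.

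Tight junctions seal the space between neighbouring cells. Claudins form the strands and set which ions and solutes pass, occludin lies in the same strands, and the scaffold protein ZO-1, encoded by Tjp1, ties them to actin. Junctional adhesion molecules and VE-cadherin hold the membranes together beside the strands. In brain, capillary endothelial cells form the blood-brain barrier and are known for claudin-5. The choroid plexus epithelium, which secretes cerebrospinal fluid and lies over fenestrated vessels, is known for claudin-1 and claudin-2.

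The E4 library held 13802 barcodes and 71625170 UMIs and the E3 library 11485 barcodes and 56415229 UMIs, where a UMI is 1 counted RNA molecule. After the limits stated by the study, 13528 E4 and 11288 E3 cells remained, and 46 barcodes occurred in both libraries. Cells were grouped without any junction gene and named from marker genes that include no member. Endothelial-like cells numbered 1573 in E4 and 1068 in E3, choroid plexus-like cells 420 in E4 and 409 in E3, and ependymal-like cells 195 in E4 and 193 in E3. All 10 endothelial markers passed in both endothelial-like clusters and all 8 choroid plexus markers in the choroid plexus-like cluster. A further 171 E4 and 110 E3 cells carried markers of endothelial cells together with those of mural cells or oligodendrocytes and were kept out of the classes.

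For the 3 claudins, whose levels set the endothelial and the choroid plexus classes apart, the 250 bases before the RefSeq transcript start (GRCm38.p6) are shown. Capitals mark GGAAG, the core of ETS factor sites, TATAAA and CCAAT, each on either strand. RefSeq promoters were at hand for 6 of the 9 genes.
Cldn5 (chr16:18776597-18776846, + strand): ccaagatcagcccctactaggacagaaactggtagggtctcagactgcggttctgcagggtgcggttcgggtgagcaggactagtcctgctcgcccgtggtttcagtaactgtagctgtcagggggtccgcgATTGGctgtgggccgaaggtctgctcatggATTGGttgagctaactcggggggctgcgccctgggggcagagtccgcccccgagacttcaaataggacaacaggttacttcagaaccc
Cldn2 (chrX:139800558-139800807, + strand): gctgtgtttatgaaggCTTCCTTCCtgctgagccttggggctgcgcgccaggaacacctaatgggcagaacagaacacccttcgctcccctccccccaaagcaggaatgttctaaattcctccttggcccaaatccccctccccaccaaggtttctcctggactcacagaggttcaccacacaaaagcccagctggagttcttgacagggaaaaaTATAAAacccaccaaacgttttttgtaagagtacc
Cldn1 (chr16:26371840-26372089, - strand): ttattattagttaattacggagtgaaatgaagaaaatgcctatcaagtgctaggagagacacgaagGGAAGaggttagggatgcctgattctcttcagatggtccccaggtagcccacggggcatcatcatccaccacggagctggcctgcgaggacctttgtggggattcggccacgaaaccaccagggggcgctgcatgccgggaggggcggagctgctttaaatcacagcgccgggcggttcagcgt
The Cldn5 window held 2 CCAAT boxes, both on the opposite strand, and none of the other letters. The Cldn2 window held 1 TATAAA and 2 overlapping GGAAG matches, and the Cldn1 window held 1 GGAAG. Among 32851 mouse promoters of this length, 33.8% held CCAAT, 12.4% TATAAA and 64.1% GGAAG, and the CCAAT box was added to the search after the Cldn5 sequence had been read. These matches describe letters and were not tested as binding sites.

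Claudin-5 was concentrated in endothelial-like cells. Cldn5, a single-exon gene on chromosome 16 (mm10, 18776847 to 18778262), reached 5479.5 CPM (a gene's UMIs in every 1000000 UMIs of the class) in E4 endothelial-like cells and 5767 CPM in E3. The counts behind these levels were 47626 UMIs in E4 and 32590 UMIs in E3. Of all Cldn5 UMIs, 84.5% in E4 and 82.8% in E3 lay in this class, and a further 12.6% in E4 and 12.7% in E3 in the cells with markers of 2 classes. When each cell was thinned to 1000 UMIs, 97.6% of E4 and 96.9% of E3 endothelial-like cells had a Cldn5 UMI, against 0.768% of E4 and 0.895% of E3 oligodendrocyte-like cells, which should lack the gene. The unthinned shares were 97.5% in E4 and 98.2% in E3 endothelial-like cells, at median depths of 3769 UMIs in E4 and 3931 UMIs in E3, and 7.73% in E4 and 5.09% in E3 oligodendrocyte-like cells, at 6125 UMIs in E4 and 6062.5 UMIs in E3.

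**Figure D1:**
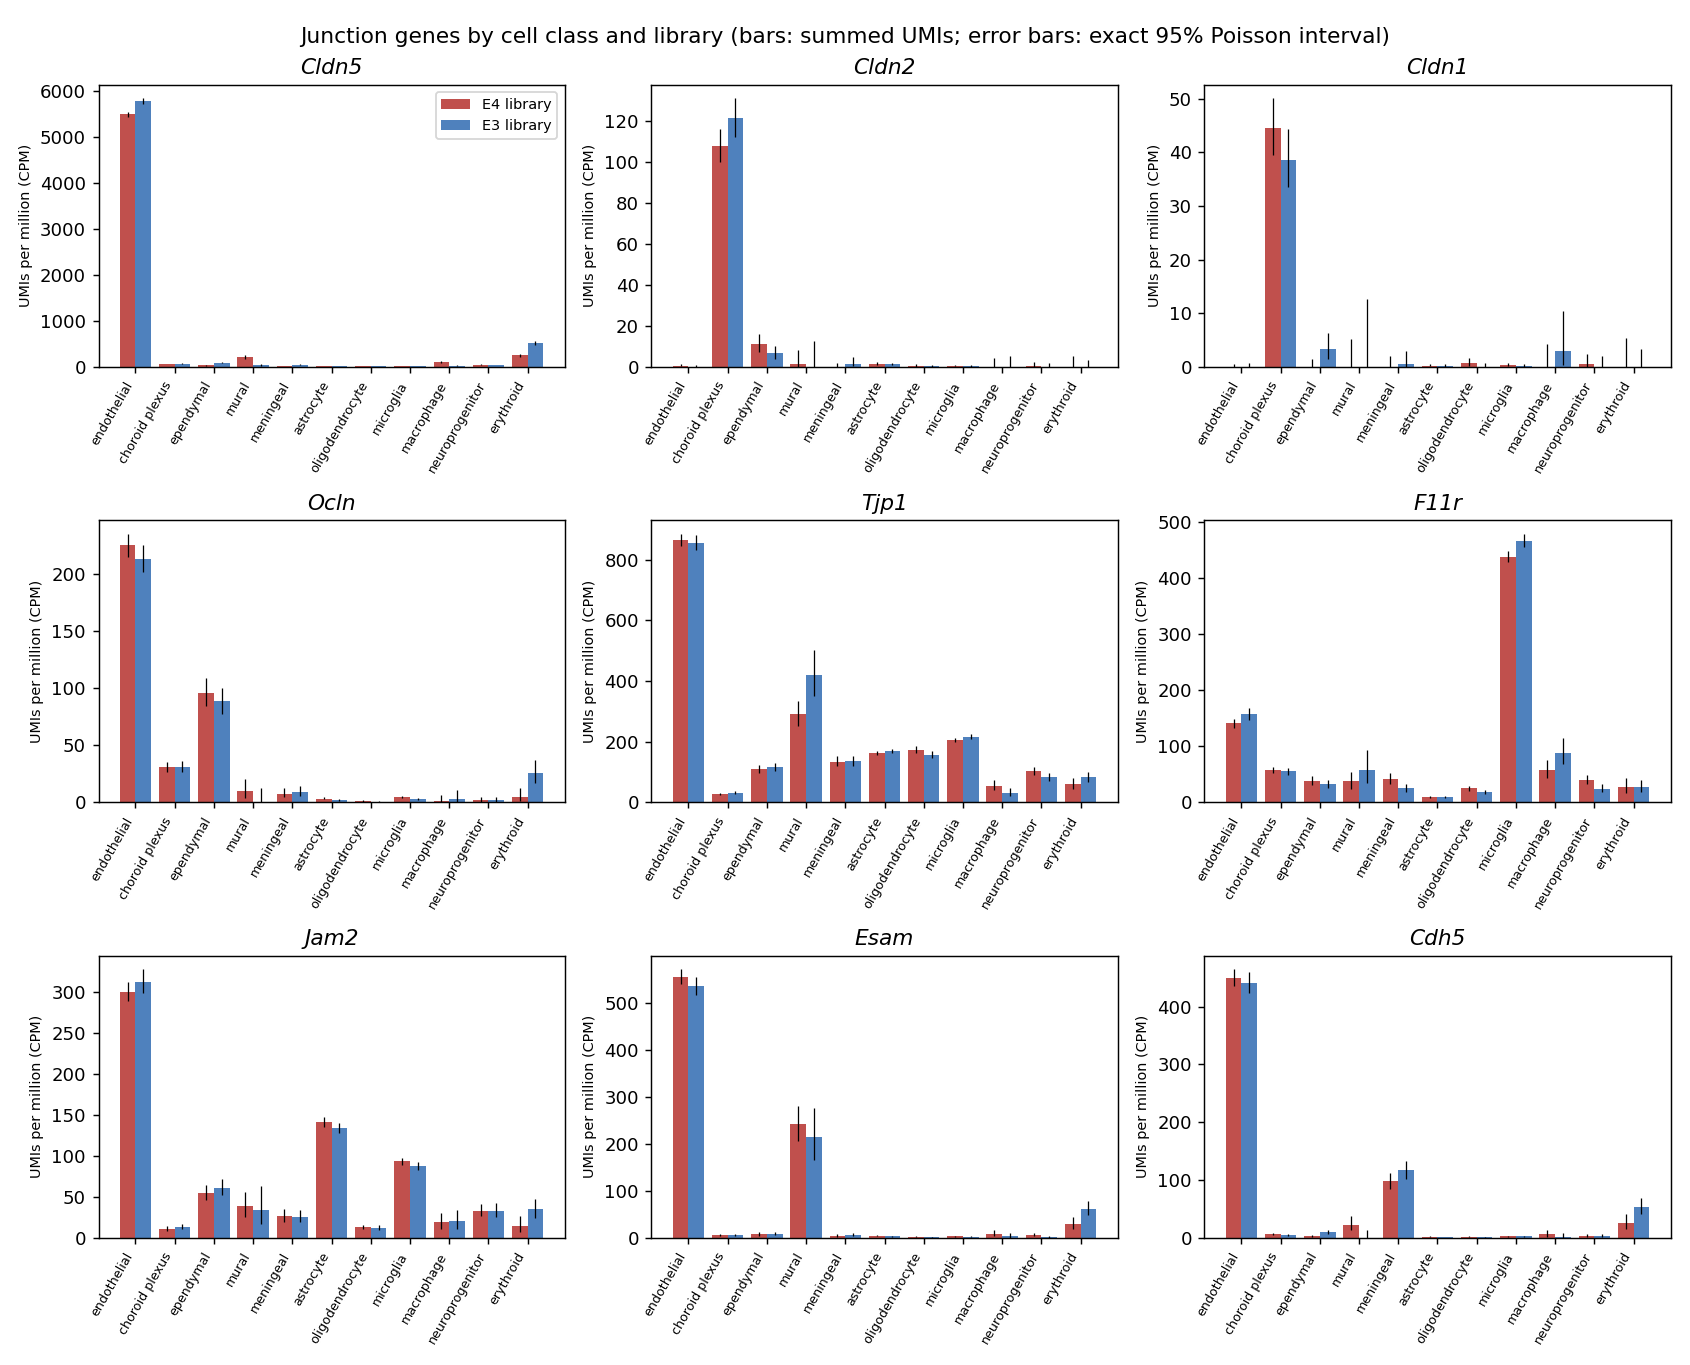
Levels of the 9 junction genes in CPM (vertical axes, each gene on its own scale) in 11 cell classes, with the E4 library left of the E3 library and exact 95% Poisson intervals as error bars. Cldn5, Ocln, Tjp1, Jam2, Esam and Cdh5 are highest in endothelial-like cells, Cldn2 and Cldn1 in choroid plexus-like cells and F11r in microglia-like cells in both libraries.

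Claudin-2, which forms a pore for cations and water, and claudin-1, a sealing claudin of epithelia, were the reverse of claudin-5. Cldn2 stood at 108 CPM (95% interval 100.0 to 116) in E4 and 121 CPM (112 to 131) in E3 choroid plexus-like cells, from 672 UMIs in E4 and 636 UMIs in E3. Endothelial-like cells held 4 Cldn2 UMIs in E4 and 0 in E3. The choroid plexus-like level was thus 235-fold the endothelial-like one in E4 (91.2 to 864) and at least 229-fold higher in E3, where 3 UMIs over the class were taken as the floor. Cldn1 was at 44.5 CPM in E4 and 38.6 CPM in E3 choroid plexus-like cells and had 0 UMIs in endothelial-like cells of both libraries. With the same floor, its choroid plexus-like level was at least 129-fold higher in E4 and at least 72.7-fold higher in E3. Bounds from this floor leave out the counting error of the choroid plexus-like level, unlike the interval given for Cldn2 in E4. The choroid plexus-like class held 90.6% of E4 and 93.9% of E3 Cldn2 UMIs, and 95.2% of E4 and 92.7% of E3 Cldn1 UMIs.

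Neither claudin was seen in every choroid plexus-like cell. A Cldn2 UMI was present in 46.4% of E4 and 44.5% of E3 cells of this class, and a Cldn1 UMI in 28.8% of E4 and 23.7% of E3 cells, although the class was deep, with medians of 11381 UMIs in E4 and 9682 UMIs in E3. Thinned to 1000 UMIs, these shares were 6.45% in E4 and 8.65% in E3 for Cldn2 and 5.46% in E4 and 2.54% in E3 for Cldn1. Astrocyte-like cells, which should lack both claudins and had median depths of 3681 UMIs in E4 and 3576 UMIs in E3, gave thinned shares of 0.0845% in E4 and 0.0659% in E3 for Cldn2 and 0.0282% in E4 and 0.0329% in E3 for Cldn1. A single UMI among 1000 corresponds to a level far above either gene, so a missing UMI does not mark a cell without the transcript. The 8 choroid plexus markers, led by Ttr, made up 252536 CPM in E4 and 247151 CPM in E3, which lowers the CPM of all other genes in this class. Ependymal-like cells came next for Cldn2, with 11.0 CPM in E4 and 6.56 CPM in E3. Choroid plexus markers in those cells summed to 581 CPM in E4 and 2981 CPM in E3, and their part in the Cldn2 level was not tested.

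Occludin transcripts were shared by endothelial-like, ependymal-like and choroid plexus-like cells. Ocln was highest in endothelial-like cells, with 225 CPM in E4 and 213 CPM in E3. Ependymal-like cells, the ciliated lining of the ventricles, followed with 96.2 CPM in E4 and 88.6 CPM in E3, and choroid plexus-like cells with 30.5 CPM in E4 and 30.8 CPM in E3. The intervals of these 3 classes did not overlap in either library. In astrocyte-like, oligodendrocyte-like and microglia-like cells, Ocln stayed between 0.653 and 4.55 CPM in E4 and between 0.382 and 2.70 CPM in E3. Erythroid-like cells were at 4.32 CPM in E4. In E3 they were at 25.4 CPM (16.9 to 36.8), which overlapped with the choroid plexus-like level.

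UMIs of the scaffold gene Tjp1 were counted in every class. It reached 866 CPM in E4 and 857 CPM in E3 endothelial-like cells. Mural-like cells, the pericytes and smooth muscle cells of the vessel wall, were second with 291 CPM in E4 and 420 CPM in E3. Microglia-like cells had 204 CPM in E4 and 216 CPM in E3, oligodendrocyte-like cells 173 CPM in E4 and 157 CPM in E3, and astrocyte-like cells 162 CPM in E4 and 170 CPM in E3. Choroid plexus-like cells were the lowest in E4, with 26.8 CPM, and in E3, at 31.7 CPM, overlapped with macrophage-like cells at 31.4 CPM. Genes on the opposite strand overlap Tjp1 (Gm44795) and Cdh5 (Gm29682), and the sources used here do not state whether counting used the strand. On the same strand, Gm44794 and Gm44792 overlap Tjp1 and the rRNA gene Gm25908 overlaps Jam2. The part of these genes in the counts was not tested.

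The junctional adhesion molecules differed from one another in the class they marked. F11r, which encodes JAM-A, was highest in microglia-like cells, at 438 CPM (428 to 448) in E4 and 467 CPM (455 to 479) in E3, 3.11-fold the endothelial-like level in E4 and 2.97-fold in E3. Thinned to 1000 UMIs, 36.2% of E4 and 38.6% of E3 microglia-like cells had an F11r UMI, against 1.01% of E4 and 0.791% of E3 astrocyte-like cells, with median depths before thinning of 4361 UMIs in E4 and 3735 UMIs in E3 microglia-like cells. Macrophage-like cells, the perivascular and border myeloid cells, had only 57.2 CPM in E4 and 88.6 CPM in E3.

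Jam2, which encodes JAM-B, stood at 301 CPM in E4 and 313 CPM in E3 endothelial-like cells, followed by astrocyte-like cells with 142 CPM in E4 and 134 CPM in E3 and microglia-like cells with 93.2 CPM in E4 and 87.7 CPM in E3. Ependymal-like cells had 54.6 CPM in E4 and 61.2 CPM in E3. Esam, an adhesion molecule of endothelial cells and platelets, was at 555 CPM in E4 and 535 CPM in E3 endothelial-like cells and at 241 CPM in E4 and 215 CPM in E3 mural-like cells. The next class, erythroid-like cells, was at 28.8 CPM in E4 and 61.8 CPM in E3, and the other named classes were at most at 8.17 CPM in E4 and 8.75 CPM in E3. The mural-like values of Esam came from 169 UMIs in E4 and 63 UMIs in E3.

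VE-cadherin, the adherens junction cadherin of endothelium encoded by Cdh5, was at 450.2 CPM in E4 and 441 CPM in E3 endothelial-like cells. Its second class was the meningeal-like one, with 97.5 CPM in E4 and 117 CPM in E3. These came from 181 UMIs in 192 E4 cells and 227 UMIs in 177 E3 cells. Oligodendrocyte-like cells, which should lack the gene, were at 1.96 CPM in E4 and 0.765 CPM in E3.

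In both libraries, 6 of the 9 genes were highest in endothelial-like cells, 2 in choroid plexus-like cells and 1 in microglia-like cells. Among 16153 genes with enough UMIs, the share highest in the same class in both libraries was 7.32% for endothelial-like, 4.51% for choroid plexus-like and 8.87% for microglia-like cells. The genes had been picked for their known place in barriers, so that the count describes them and is no test. The 6 genes stayed highest in endothelial-like cells under all 10 other settings tried.

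Members were also detected together in single endothelial-like cells. With 1000 UMIs a cell, an endothelial-like cell had on average 2.88 members with a UMI in E4 and 2.84 in E3, and 59.5% of E4 and 59.8% of E3 cells had at least 3. Only 0.612% of E4 and 0.589% of E3 endothelial-like cells had none. Mural-like cells came next, with a mean of 0.701 in E4 and 0.738 in E3. In microglia-like cells the mean was 0.654 in E4 and 0.674 in E3, and in choroid plexus-like cells it was 0.261 in E4 and 0.267 in E3.

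The endothelial-like class was split again, also without junction genes, into 7 sub-clusters. One of 630 cells passed 3 venous markers, Slc38a5, Nr2f2 and Vwf, together with the capillary marker Car4 and is called venous-like, and its leading genes were Flrt2, Nr2f2 and Ndnf. One of 561 cells passed 5 arterial markers, led by Lypd1, Fbln2 and Stmn2, and a small one of 22 cells, 5 in E4 and 17 in E3, passed 6 arterial markers as well as the venous markers Vwf and Vcam1 and was led by Cytl1, Fbln5 and Mgp. The largest, of 869 cells, passed no zone marker, was shallow at a median of 2489 UMIs and was led by Mbp, Bc1 and AY036118, which are not endothelial genes. The capillary marker Car4 was also among its leading genes, without passing. Finally, 313 cells also passed 8 of 8 astrocyte markers, 96 cells 4 of 9 mural markers and 150 cells 9 of 9 microglia markers.

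Levels of the members differed modestly between venous-like and arterial-like cells. Cldn5 was at 6289 CPM in E4 and 6544 CPM in E3 venous-like cells, and at 5365 CPM in E4 and 5451 CPM in E3 arterial-like cells (561 cells), with intervals apart in both libraries. In the sub-cluster without zone markers it was at 6987 CPM in E4 and 6799 CPM in E3. Tjp1 was likewise higher in venous-like cells, at 1057 CPM in E4 and 1012 CPM in E3 venous-like against 821 CPM in E4 and 892 CPM in E3 arterial-like cells. Esam was also higher in venous-like cells, at 655 CPM in E4 and 636 CPM in E3 against 585 CPM in E4 and 531 CPM in E3, with intervals apart in E4 and in E3. Ocln was at 278 CPM in E4 and 245 CPM in E3 venous-like cells against 218 CPM in E4 and 224 CPM in E3 arterial-like cells, with intervals that overlapped in E3.

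VE-cadherin took the other order in E3. Cdh5 stood at 512 CPM in E4 and 466 CPM in E3 venous-like cells against 536 CPM in E4 and 565 CPM in E3 arterial-like cells, and the intervals overlapped in E4. It was lower in the sub-cluster without zone markers, at 384 CPM in E4 and 399 CPM in E3. Jam2 differed little among these 3 sub-clusters, at 296 to 336 CPM in E4 and 328 to 349 CPM in E3. Leaving aside the sub-cluster of 22 cells, F11r was highest in that with microglia markers, at 260 CPM in E4 and 275 CPM in E3, while Cldn5 was lowest there, at 3089 CPM in E4 and 3530 CPM in E3.

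**Figure D2:**
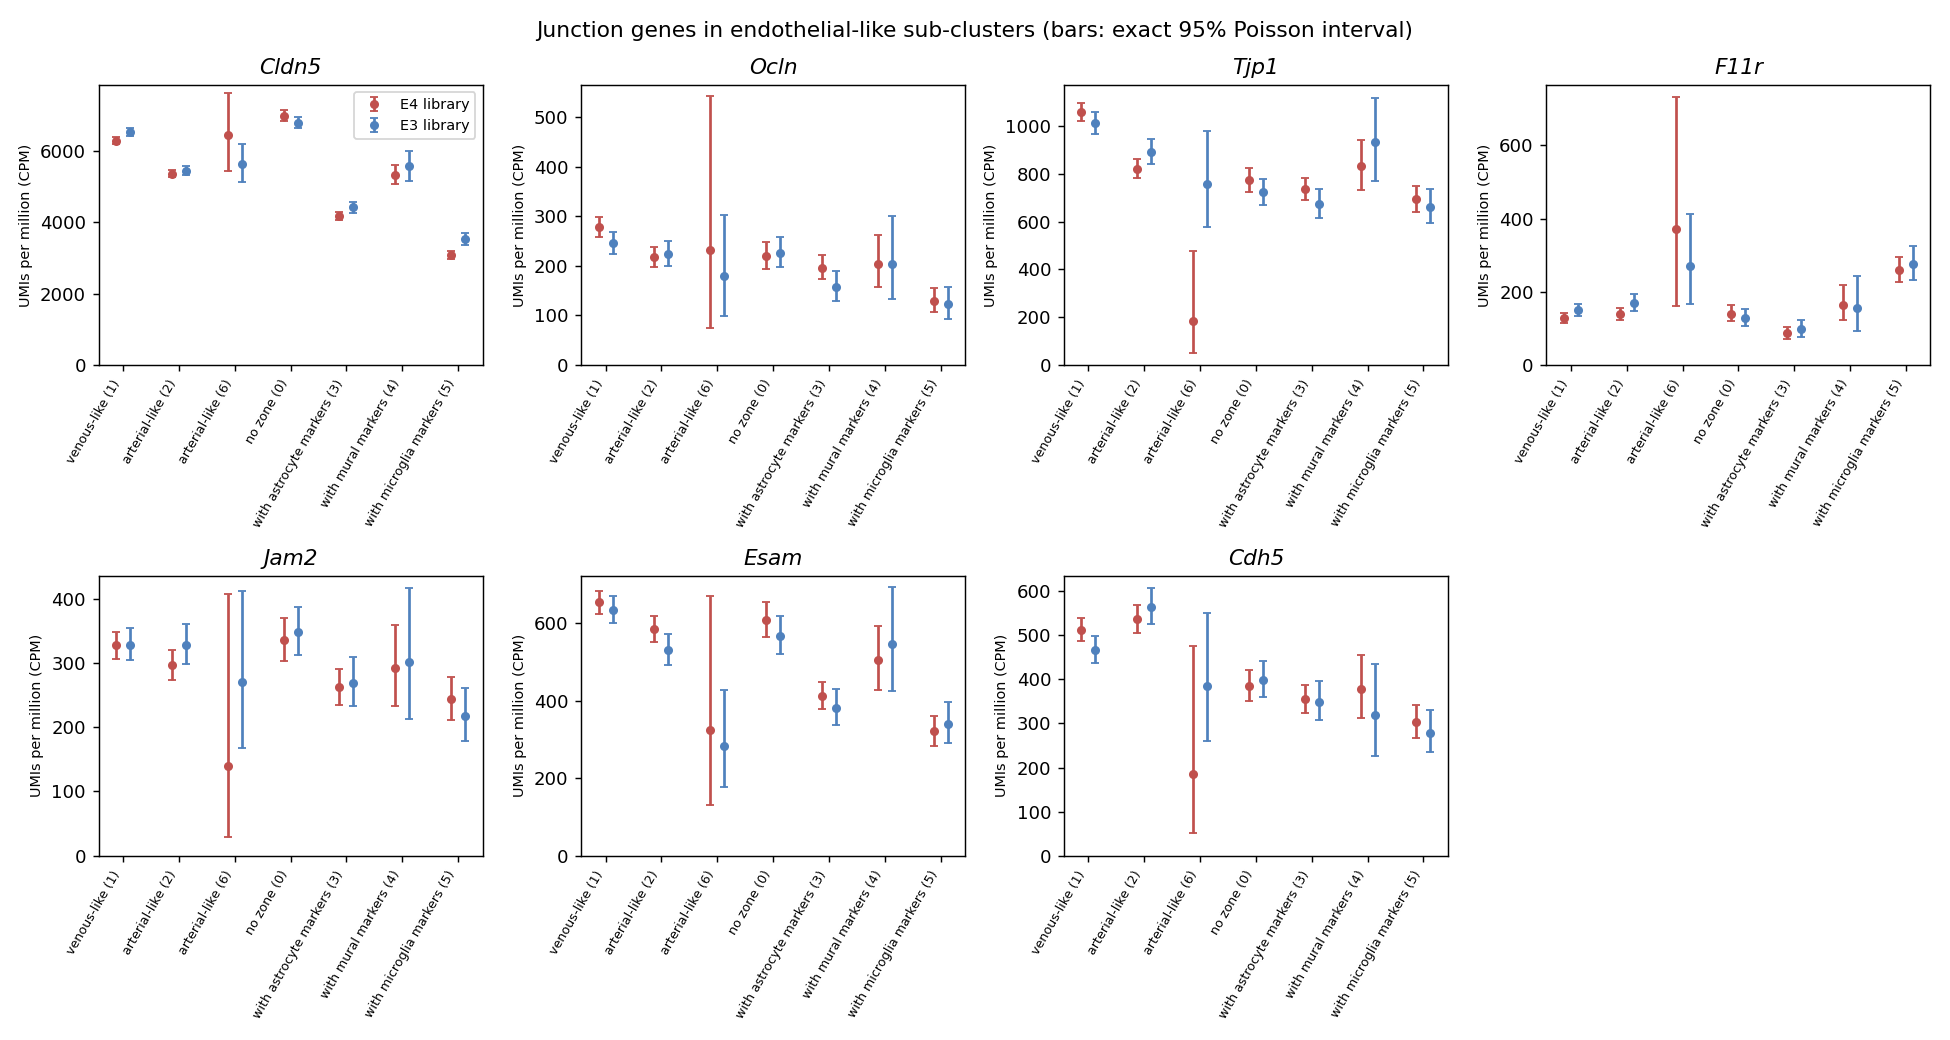
Levels in CPM (vertical axes) of the 7 members detected in endothelial-like cells, in 7 sub-clusters (horizontal axis, sub-cluster number in brackets), with E4 points left of E3 points and exact 95% Poisson intervals. Cldn5, Tjp1 and Esam lie higher in the venous-like than in the larger arterial-like sub-cluster in both libraries, and F11r reaches 260 CPM in E4 and 275 CPM in E3 where microglia markers pass.

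Outside endothelial-like cells, the levels were set beside those of the 10 endothelial markers that named the class, each as a percentage of its own endothelial-like level. Cldn5 kept to the range of these markers or below it in all other classes of both libraries. In macrophage-like cells it was at 1.94% in E4 and 0.347% in E3, where the summed markers were at 1.96% in E4 and 0.259% in E3. In erythroid-like cells it was at 4.49% in E4 and 8.92% in E3, and the summed markers at 4.01% in E4 and 10.7% in E3. Several other members lay well above the markers: Ocln in ependymal-like cells at 42.7% in E4 and 41.5% in E3, where the highest marker, Itm2a, was at 1.37% in E4 and 2.51% in E3. Esam in mural-like cells was at 43.4% in E4 and 40.2% in E3, against 21.8% in E4 and 26.0% in E3 for the highest marker, Emcn. Cdh5 in meningeal-like cells was at 21.7% in E4 and 26.4% in E3, against 11.8% in E4 and 12.7% in E3 for Itm2a. Jam2 in astrocyte-like cells stood at 47.1% in E4 and 42.9% in E3, where no marker passed 1%. Tjp1 did not stand clear of the markers in every class. In choroid plexus-like cells it was at 3.10% in E4 and 3.70% in E3. The highest marker there, Slco1a4, was at 3.52% in E4 and 3.48% in E3, and the second highest at 1.75% in E4 and 1.425% in E3. In E3 erythroid-like cells Tjp1, at 9.55%, lay within the marker range of 7.70% to 14.3%. In E4 erythroid-like cells it was at 6.82%, above the highest marker at 5.95%.

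**Figure D3:**
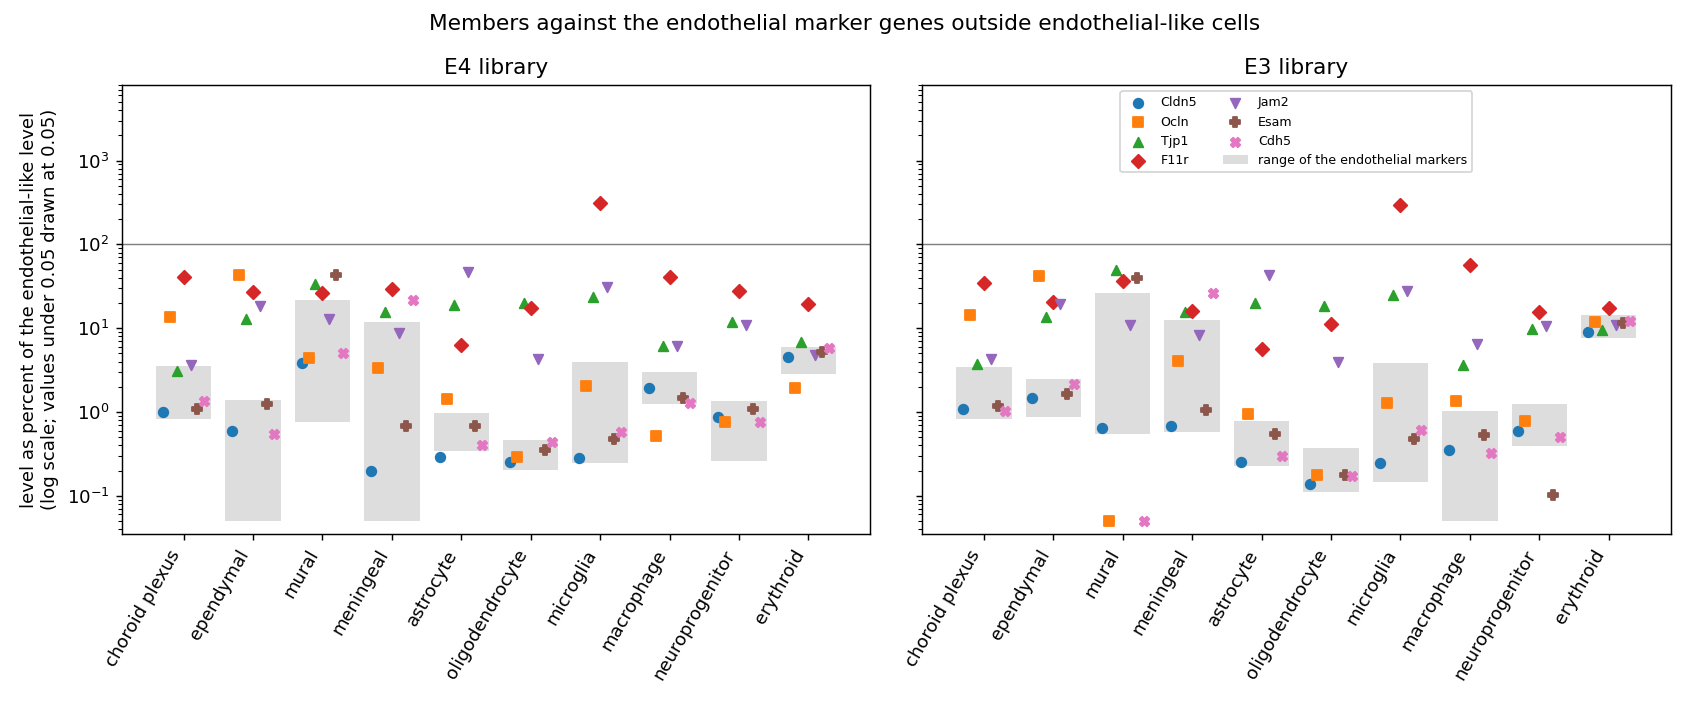
Level of 7 members as a percentage of their own level in endothelial-like cells (vertical axis, log scale) in 10 other classes, E4 library left and E3 library right. Grey bars span the 10 endothelial markers, the line marks 100%, and values under 0.05 are drawn at 0.05. Cldn5 stays within or below the grey bars, whereas Ocln in ependymal-like cells at 42.7% in E4 and 41.5% in E3 and F11r in microglia-like cells at 311% in E4 and 297% in E3 stand above them.

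In some of these other classes most Cldn5 UMIs lay in few cells. In erythroid-like cells, 5 of 119 cells in E4 and 8 of 153 in E3 had 10 or more Cldn5 UMIs and held 94.7% of the class's Cldn5 UMIs in E4 and 98.9% in E3. The remaining erythroid-like cells were at 13.9 CPM in E4 and 6.16 CPM in E3. In choroid plexus-like cells, 10 cells in E4 and 9 in E3 held 87.8% of Cldn5 UMIs in E4 and 88.1% in E3, and the rest were at 7.04 CPM in E4 and 7.73 CPM in E3. In astrocyte-like, oligodendrocyte-like and microglia-like cells, 0 cells of either library had 10 or more. Without called doublets the whole choroid plexus-like class was at 20.2 CPM in E4 and 28.4 CPM in E3. Mural-like cells with fewer than 10 Cldn5 UMIs were at 68.5 CPM in E4 and 37.6 CPM in E3. The erythroid markers, mostly haemoglobin, took 828254 CPM in E4 and 823423 CPM in E3 of the erythroid-like class. With all genes in the totals, the endothelial-like level of Cldn5 was 22.3 times the erythroid-like one in E4 and 11.2 times in E3. From the mean levels of both libraries it was 14.8 times with all genes. That ratio was 2.46 with haemoglobin, mitochondrial and rRNA-overlapping genes left out of the totals.

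Between genotypes, the members differed little in endothelial-like cells. Cldn5 was 0.07 lower in E4 on the log2 scale (log2 ratio -0.07, interval -0.09 to -0.05) and F11r was 0.16 lower (-0.16, -0.28 to -0.03). The other log2 ratios of E4 over E3 were 0.08 for Ocln, 0.02 for Tjp1, -0.06 for Jam2, 0.05 for Esam and 0.03 for Cdh5, with intervals that held 0. Of the 7 members with at least 50 UMIs, 0 reached a log2 ratio of 0.32 in either direction with an interval without 0, a rule that 8.71% of 10840 genes met in this class. All 7 intervals lay inside that limit. The class was made of 2 clusters, and the log2 ratio of Cldn5 was -0.07 in the one of 2231 cells and 0.12 (0.04 to 0.19) in the one of 410 cells. Leaving out the sub-clusters with astrocyte, mural or microglia markers gave 0 again. These markers were higher in E4 endothelial-like cells, with 1479 CPM in E4 against 1158 CPM in E3 for astrocyte and 765 CPM in E4 against 667 CPM in E3 for mural markers, and 1578 CPM in E4 against 1466 CPM in E3 for microglia markers, and their part in the ratios was not tested.

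**Figure D4:**
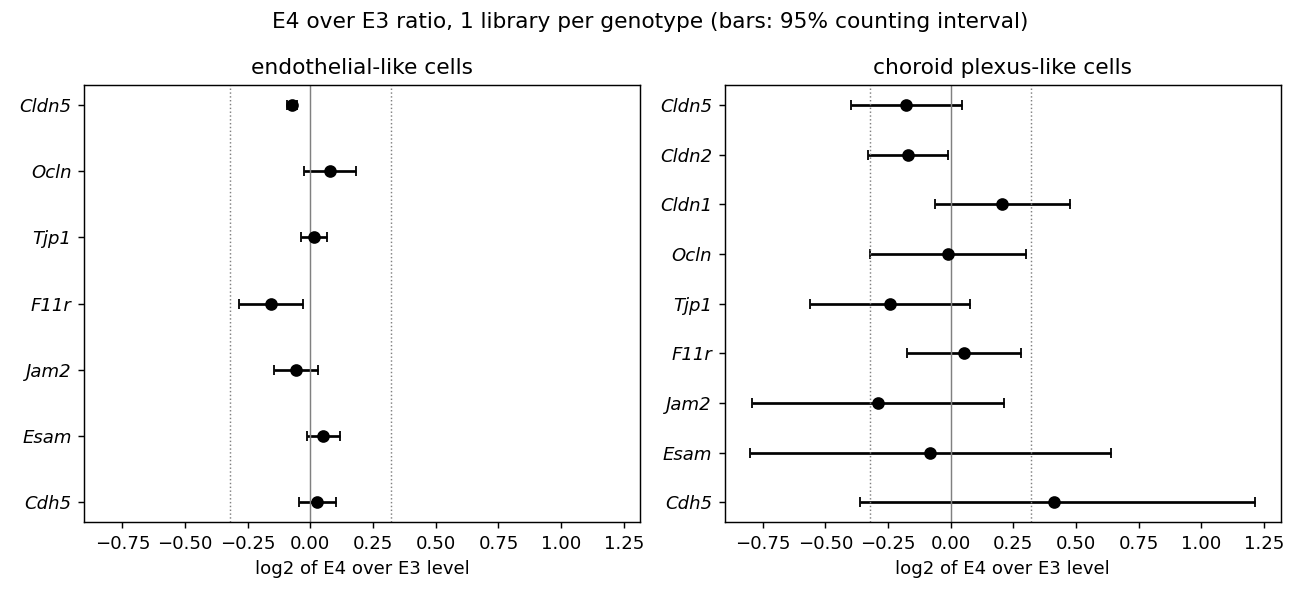
Log2 ratio of E4 over E3 (horizontal axis) for the members with at least 50 UMIs in endothelial-like cells (left, 7 genes) and choroid plexus-like cells (right, 9 genes), with 95% counting intervals and 1 library per genotype. Dotted lines mark a log2 ratio of 0.32 in either direction, and 0 members in either class lie past them with an interval that leaves out 0, although Cdh5 in choroid plexus-like cells has a ratio of 0.41 with an interval of -0.36 to 1.22.

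In choroid plexus-like cells, 0 of 9 members met the same rule, which 8.18% of 9420 genes met. Cldn2 had a log2 ratio of -0.17 (-0.33 to -0.01) and Cldn1 of 0.21 (-0.06 to 0.48), so the estimates for both claudins of this epithelium had opposite signs, that of Cldn1 with an interval that held 0. F11r had a ratio of 0.05 (-0.18 to 0.28) and Ocln of -0.01 (-0.32 to 0.30). For Cldn5, which was within the range of the endothelial markers here, the ratio was -0.18 (-0.40 to 0.05), and it met the rule at -0.49 when called doublets were left out.

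Over all 11 classes, 57 pairs of member and class had at least 50 UMIs and 16 met the rule, against 9.29% of 89198 pairs over all genes. Of the 16, 3 lay in erythroid-like cells, where 38.7% of all genes met it. Cldn5, in erythroid-like cells too, made up 7 of the 16, in classes where it was within or below the range of the endothelial markers. Ocln in microglia-like cells met the rule too, at 4.55 CPM in E4 and 2.70 CPM in E3. That was 2.02% of its endothelial-like level in E4 and 1.26% in E3. The highest endothelial marker there, Pecam1, was above it at 3.91% in E4 and 3.86% in E3. The second highest marker was below it, at 0.804% in E4 and 0.454% in E3. Among the pairs clearly above the endothelial markers, Tjp1 in mural-like cells met the rule, at 291 CPM in E4 and 420 CPM in E3 (log2 ratio -0.53, -0.86 to -0.20), from 204 UMIs in E4 and 123 UMIs in E3. Above the markers, the rule was also met by F11r in meningeal-like, oligodendrocyte-like, neuroprogenitor-like and macrophage-like cells. It was met by Tjp1 in macrophage-like cells as well, and these ratios are given further on. F11r in microglia-like cells had a ratio of -0.09 (-0.14 to -0.04), Jam2 in astrocyte-like cells of 0.08 (-0.01 to 0.17), Ocln in ependymal-like cells of 0.12 (-0.15 to 0.38), Esam in mural-like cells of 0.16 (-0.26 to 0.60) and Cdh5 in meningeal-like cells of -0.26 (-0.55 to 0.03), none of which met it.

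A list of 66 other junction genes gave the setting. In endothelial-like cells 33 of them had at least 50 UMIs, of which 1 was higher and 0 were lower in E4 by the same rule, the one being Cldn11, a claudin of myelin, which is named here after its value was seen. The median log2 ratio of those 33 was 0.13, against 0.07 over all genes tested. The highest were Ctnnb1, which encodes beta-catenin, at 713 CPM in E4 and 684 CPM in E3, Cgnl1, which encodes the scaffold paracingulin, at 349 CPM in E4 and 320 CPM in E3, and Ctnna1, which encodes alpha-catenin, at 344 CPM in E4 and 318 CPM in E3. The same 3 genes led in choroid plexus-like cells, between 132 and 142 CPM in E4 and between 114 and 121 CPM in E3. There 38 of the list were tested, 6 higher and 4 lower in E4, in a class where the rule was met by 8.18% of all genes tested, 458 higher and 313 lower.

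Other claudins and cadherins marked the remaining classes. Cldn10 was at 1299 CPM in E4 and 1191 CPM in E3 astrocyte-like cells, followed by Cdh2, which encodes N-cadherin, at 340.3 CPM in E4 and 306 CPM in E3, and Ctnnd2, which encodes delta-catenin, at 192 CPM in E4 and 197 CPM in E3. Cldn11 was at 1814 CPM in E4 and 1885 CPM in E3 oligodendrocyte-like cells, where it builds the tight junctions of myelin sheaths. Ildr2 led in meningeal-like cells, at 804 CPM in E4 and 992 CPM in E3, and was also high in ependymal-like cells, at 220.1 CPM in E4 and 268 CPM in E3. Vcl, which encodes vinculin, led in mural-like cells, at 356 CPM in E4 and 427 CPM in E3. In ependymal-like cells Ctnna1 was at 313 CPM in both libraries and Ctnnb1 at 242 CPM in E4 and 225 CPM in E3. In neuroprogenitor-like cells the highest was Cdh2, at 243 CPM in E4 and 246 CPM in E3. In the 3 other classes the gene with the highest mean of both libraries was Ctnnb1, at 135 CPM in E4 and 132 CPM in E3 microglia-like cells, 125 CPM in E4 and 94.3 CPM in E3 macrophage-like cells, and 37.4 CPM in E4 and 98.1 CPM in E3 erythroid-like cells. It did not lead in each library, since Ctnna1 was at 116 CPM in E3 macrophage-like cells and Cldn10 at 57.6 CPM in E4 erythroid-like cells.

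The genes most alike each member across classes were found among 13979 genes, by the Pearson correlation of log2(CPM + 10) over 20 points, 10 classes in each library. Mural-like cells, the second class of Esam and Tjp1, were left out because E3 held only 98 of them. The points share 2 libraries and their free RNA, so the coefficients are descriptions. Cldn5 was most alike Flt1 (0.99), Ptprb (0.99) and Ly6c1 (0.99), all of them among the markers used to name endothelial-like cells. Esam was most alike Tek, Cyyr1 and Sox18 (0.99 each). Cdh5 was most alike Ltbp4, Arhgap29 and Abcb1a (0.99 each). Cldn2 was most alike Myo5b, Smim22 and Pla2g5 (0.99 each), and Cldn1 was most alike Cldn3, another claudin, Oca2 and Crb3 (0.99 each). The genes with broader patterns had looser partners, with Lama5, Rflnb and Cutal for Ocln (0.93 to 0.95), Extl3, Map4 and Tmc7 for Tjp1 (0.87 to 0.91), P2ry10b, Ecscr and Klk8 for F11r (0.92 to 0.93) and Fry, Gm43259 and Hbegf for Jam2 (0.91 to 0.92). Among the members, Cldn2 and Cldn1 were at 0.97 and Cldn5 and Esam at 0.97, whereas Cldn5 and F11r were at 0.24.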

How the data were processed

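The authors deposited raw UMI counts per gene and cell, made with Cell Ranger (6.1.1 for E4, 6.1.2 for E3, per the file headers) on mm10. The names of the 9 genes and all lists were chosen with earlier results of these data known. The study's limits were applied, dropping barcodes under 50 or over 50000 UMIs or above 30% mitochondrial UMIs. This left more cells than the study's own total, by more than the small mixed clusters that it names as removed. Counts were scaled to 10000 per cell, log-transformed, reduced from 2000 variable genes without any junction gene to 20 principal components, and clustered by the Leiden method at resolution 1 with 15 neighbours (scanpy 1.11.5, igraph 0.11.9, Python 3.11.15). A class name needed 3 markers at 2-fold with a UMI in 20% of cells. A cluster was set aside where a second class had 75% of the best class's share of markers. UMIs were summed per class and library, with exact Poisson intervals for levels, exact binomial intervals for shares and ratios (scipy 1.17.1), at 95%. Doublets called with the Scrublet method of scanpy (6.61% of E4 and 4.89% of E3 cells) were left out only as an alternative. The ratio functions were tested on simulated data. Named genes are the 9 members, the 3 highest of the 66 other junction genes in endothelial-like, choroid plexus-like, ependymal-like and astrocyte-like cells and the highest in each other class, the 3 genes most alike each member, and the 3 genes leading each endothelial-like sub-cluster. Genes called in the list of 66 were named, after their values were seen, only where the count was 5 or fewer. Levels count transcript ends and are compared across classes within a gene, not between genes.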

Additional observations from a re-analysis of the deposited data

Results flagged for a closer look

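The E4 over E3 ratio of 3 members took opposite signs in different classes, with 1 library per genotype, and no difference between classes was tested. Cldn5 had log2 ratios of 2.47 in mural-like, 2.41 in macrophage-like, 0.77 in oligodendrocyte-like and 0.47 in neuroprogenitor-like cells, and of -1.36 in ependymal-like, -1.86 in meningeal-like and -1.06 in erythroid-like cells. The summed endothelial markers had log2 ratios of 0.99 in mural-like, 2.94 in macrophage-like, 0.60 in oligodendrocyte-like, -0.11 in neuroprogenitor-like, -0.80 in ependymal-like, -0.43 in meningeal-like and -1.40 in erythroid-like cells, which is the sign of Cldn5 in 6 of these 7 classes. The part of these markers in the Cldn5 ratios was not tested. Apart from that in oligodendrocyte-like cells, the Cldn5 ratios rested in part on few cells. Without the cells that had 10 or more Cldn5 UMIs, the estimates of the libraries swapped order in 5 of the 7 classes. Those cells were set aside by their own Cldn5 count, which alone lowers the library that holds more of them. The levels left rest on few UMIs and were given no interval, so the swaps do not show a reversed difference. Ependymal-like cells were then at 11.2 CPM in E4 and 3.02 CPM in E3. Meningeal-like cells were at 10.8 CPM in E4 and 9.46 CPM in E3. Erythroid-like cells were at 13.9 CPM in E4 and 6.16 CPM in E3, and neuroprogenitor-like cells at 14.4 CPM in E4 and 16.7 CPM in E3. The fifth was the macrophage-like class, where E4 was at 18.7 CPM, just below E3 with its 14 UMIs. Mural-like cells were then at 68.5 CPM in E4 and 37.6 CPM in E3, and oligodendrocyte-like cells held 0 such cells. In mural-like cells 3 of 209 E4 cells held 69.9% of the Cldn5 UMIs, and in macrophage-like cells 3 of 223 E4 cells held 83.5%, while 0 E3 cells of either class had 10 or more. In ependymal-like cells, 3 of 193 E3 cells held 96.5% of the Cldn5 UMIs.

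Tjp1 had log2 ratios of -0.53 in mural-like and 0.77 in macrophage-like cells, which held 46 Tjp1 UMIs in E4 and 22 in E3. F11r had log2 ratios of 0.70 in meningeal-like, 0.46 in oligodendrocyte-like and 0.70 in neuroprogenitor-like cells and of -0.63 in macrophage-like cells. The summed microglia markers, a class in which F11r is highest, had ratios of 1.09, 0.61 and 0.48 in the first 3 of these and of 0.09 in macrophage-like cells. The part of these markers in the F11r ratios was not tested.

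The cells with markers of 2 classes, which entered no comparison, held Cldn5 at 3547 CPM in E4 and 3899 CPM in E3, below the endothelial-like level in both libraries.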

How the results depend on the processing

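With 1 library per genotype and 3 pooled mice in each, no spread between animals can be given, and the intervals cover counting error only. No paired analysis was possible because each genotype has 1 library. Of 8 other settings, and 2 more chosen after seeing the data, all gave 6 members highest in endothelial-like cells and 0 past a log2 ratio of 0.32 there. In choroid plexus-like cells the count of members past that limit was 1 (Cldn5) when called doublets were left out before clustering, 1 (Cldn5) when they were left out of the same classes, and 1 (Esam, from 37 UMIs in E4 and 33 in E3) with the mean over cells, which gives no interval and so was read by the fold alone. Under the other settings 0 members passed with an interval without 0. Of 146 member ratios recomputed, 132 stayed inside the main counting interval, 14 moved outside it and 0 reversed a call, 6 of the 14 with cells thinned to 1000 UMIs. There Ocln in endothelial-like cells reached a log2 ratio of 0.30, and Cldn2 in choroid plexus-like cells one of -0.38. Of 70 ratios of endothelial-like cells to the next class, from mean levels of both libraries, 40 stayed inside the main interval and 30 moved. The ratios lay between 2.46 and 88.5 for Cldn5, 1.86 and 71.1 for Esam, 1.70 and 4.10 for Tjp1 and 1.86 and 4.55 for Cdh5. The lowest values of Cldn5 and Cdh5 had haemoglobin left out of the totals. The highest of Cldn5 and Esam had resolution 0.5, where the next class was macrophage-like for Cldn5 and ependymal-like for Esam. In the main setting the next class was erythroid-like for Cldn5 and mural-like for Esam. The highest values are thus ratios to another class than in the main setting, and the cause was not tested. Mural-like levels in E3 rest on 98 cells.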
